A study of Mus musculus with 18 samples.

Results

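Complement is a cascade of plasma and cell-surface proteins, and 8 of its genes are described here: C1ra, C4b, C3, Cfb, C9, Serping1, Cd55 and Cd59a. They were chosen by gene symbol from the 15288 genes of 1 expression table, with earlier results of these data in view over all 6 groups, and all 8 were among its rows. The one member whose earlier result is on record is C4b, which stood among the lowest genes with siCYP1B1 in vehicle. Its values there are therefore given as a description with no test, and no other p-value below is corrected for the choice of genes.

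The table holds 18 RNA sequencing libraries from mouse. The samples are labelled pulmonary microvascular endothelial cells, which line small lung vessels, while the series title speaks of vascular smooth muscle cells. All cells were lipid-transfected with 5 ul of a 10 uM stock of small interfering RNA (siRNA), either scrambled or directed against CYP1B1, an estradiol-metabolizing cytochrome. From 24 hours later they were kept for 24 hours in 5% serum with vehicle, with 1 uM E2 (estradiol) or with 1 uM 16aOHE, a label read here as 16-alpha-hydroxyestrone, an estradiol metabolite. This gave 6 groups of 3 libraries: scrambled vehicle, scrambled E2, scrambled 16aOHE, siCYP1B1 vehicle, siCYP1B1 E2 and siCYP1B1 16aOHE. There was no group without siRNA. The labels do not say whether a group's 3 libraries are separate cultures, and p-values therefore reflect sample spread that may be technical.

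Complement is started by antibody, by sugars on a surface or by slow spontaneous activation. In the classical pathway the proteases C1r and C1s cut C4 and C2 to form an enzyme that cleaves C3. Factor B forms the matching enzyme of the alternative pathway, and deposited C3 leads on to the terminal proteins, of which C9 builds the membrane pore. Liver makes most of the circulating protein, many other cells make some components locally, and inhibitors in plasma and on cell surfaces protect the body's own cells.

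Values are CPM, read counts scaled to the same total over the listed genes, and 1 CPM stood for an estimated 14.1 to 38.5 reads, depending on the library. Differences were tested as log2(CPM + 1), which understates the change of genes near 1 CPM. A gene was called when its p-value from limma, a linear model fitted to all tested genes, was under 0.05 after Benjamini-Hochberg adjustment over the 11835 genes averaging 1 CPM or more. Of the 8 members, 6 passed that filter. Serping1 (mean 0.856 CPM) and Cd59a (0.473 CPM) did not, and were tested in the same model fitted to all 15288 genes. The targeted gene Cyp1b1 averaged 92.2 ± 3.58 CPM in scrambled vehicle and 81.5 ± 0.724 CPM in siCYP1B1 vehicle (SD, n = 3), and its log2 difference was -0.18 in vehicle, -0.19 in E2 and -0.24 in 16aOHE.

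The cell label was checked against markers. The endothelial genes Pecam1 and Vwf averaged 0.0482 and 0.0306 CPM, at or near 0, while Cd34 (107 CPM) and Flt1 (70.0 CPM) were well measured. Of 9 listed mesothelial genes 8 were among the rows and 7 averaged 1 CPM or more, with Msln at 1521 CPM, Upk3b at 825 CPM and Wt1 at 256 CPM. In scrambled vehicle the 8 mesothelial markers summed to 4906 to 4989 CPM and the 6 fibroblast markers to 6046 to 6368 CPM. Of 6 hepatocyte markers 3 were among the rows and 1 averaged 1 CPM or more, while albumin (Alb) and Ahsg averaged 0.0406 and 0.0295 CPM. The 3 summed to 1.08 to 1.58 CPM in scrambled vehicle. Of 9 leukocyte markers 6 were among the rows and 3 averaged 1 CPM or more. They summed to 82.1 to 84.4 CPM in scrambled vehicle, where Itgb2 averaged 47.3 CPM. The leukocyte markers Ptprc and Itgam averaged 0.0313 and 0.0291 CPM over all libraries.

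The starts of the members are shown first, since the estrogens are known to act through nuclear receptors on DNA and 1 member, C9, differed between the estrogen arms. RefSeq promoter windows (GRCm38.p6, from 250 bases before to 50 after the start site) were matched for 5 of the 8 members, C1ra, C3, C9, Cd55 and Cd59a. They were searched on both strands for TTCNNNGAA (a STAT-like site), TTTCNNTTT (interferon-response-like), GGGANTTTC (NF-kB-like), TTGCNNAA (C/EBP-like), AGGTCA (an estrogen response element half-site) and GCGTG (the core bound by the aryl hydrocarbon receptor). The windows of C9 (chr15:6445096-6445395, plus strand) and C3 (chr17:57228087-57228386, minus strand), 5′ to 3′ on the gene's strand with the C/EBP-like match in capitals, read:
C9: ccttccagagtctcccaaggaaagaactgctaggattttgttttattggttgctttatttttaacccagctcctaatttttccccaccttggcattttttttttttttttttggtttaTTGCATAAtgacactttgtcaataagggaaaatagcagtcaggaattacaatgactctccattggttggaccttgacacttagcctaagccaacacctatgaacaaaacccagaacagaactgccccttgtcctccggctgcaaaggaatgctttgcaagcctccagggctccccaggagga
C3: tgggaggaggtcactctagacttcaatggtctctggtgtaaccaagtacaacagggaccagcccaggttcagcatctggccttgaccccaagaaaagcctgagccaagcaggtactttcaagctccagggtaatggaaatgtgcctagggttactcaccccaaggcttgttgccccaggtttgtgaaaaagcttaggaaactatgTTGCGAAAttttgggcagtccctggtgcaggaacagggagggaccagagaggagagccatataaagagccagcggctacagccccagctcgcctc
The match in C9, TTGCATAA, begins 132 bases before the start site and the match in C3, TTGCGAAA, 45 bases before it. TTGCNNAA was found in 10.8% of 32851 promoter windows of the same length. C3 also held AGGTCA at 243 bases before the start site, a word present in 16.3% of windows, and C9 held no AGGTCA in this window.

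The window of C1ra (chr6:124512371-124512670, plus strand) is printed because it was the only one of the 5 with a STAT-like word. Capitals mark the C/EBP-like match on the minus strand, TTATGCAA, 17 bases after the start site, and the STAT-like match, TTCCCTGAA, 33 bases after it.
C1ra: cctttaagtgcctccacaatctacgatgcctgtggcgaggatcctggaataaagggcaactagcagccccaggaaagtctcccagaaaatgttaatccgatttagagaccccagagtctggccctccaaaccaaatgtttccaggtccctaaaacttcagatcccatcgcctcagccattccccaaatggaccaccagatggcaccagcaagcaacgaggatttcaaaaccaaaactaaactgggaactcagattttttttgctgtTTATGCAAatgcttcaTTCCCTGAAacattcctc
TTCNNNGAA was found in 8.30% of all windows. Cd55 held GCGTG on its minus strand (32.4% of windows) and Cd59a held GCGTG and, on its minus strand, TTTCNNTTT (10.6% of windows). GGGANTTTC, present in 1.11% of windows, was in none of the 5.

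Levels were low throughout. Per kilobase of exon, C1ra (3.73 CPM per kb) and C3 (3.06) stood highest on the mean over 18 libraries, then Cfb (1.27), Cd55 (1.25) and C9 (1.14). Serping1 (0.426), C4b (0.371) and Cd59a (0.261) were the lowest. C3 rested on 246 to 575 estimated reads per library, C4b on 9 to 149, C9 on 18 to 105, Serping1 on 3 to 62 and Cd59a on 5 to 17. In the same unit C2, the partner of C4 in the classical pathway, was far above every member, as the plot of levels by role shows.

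**Figure D1:**
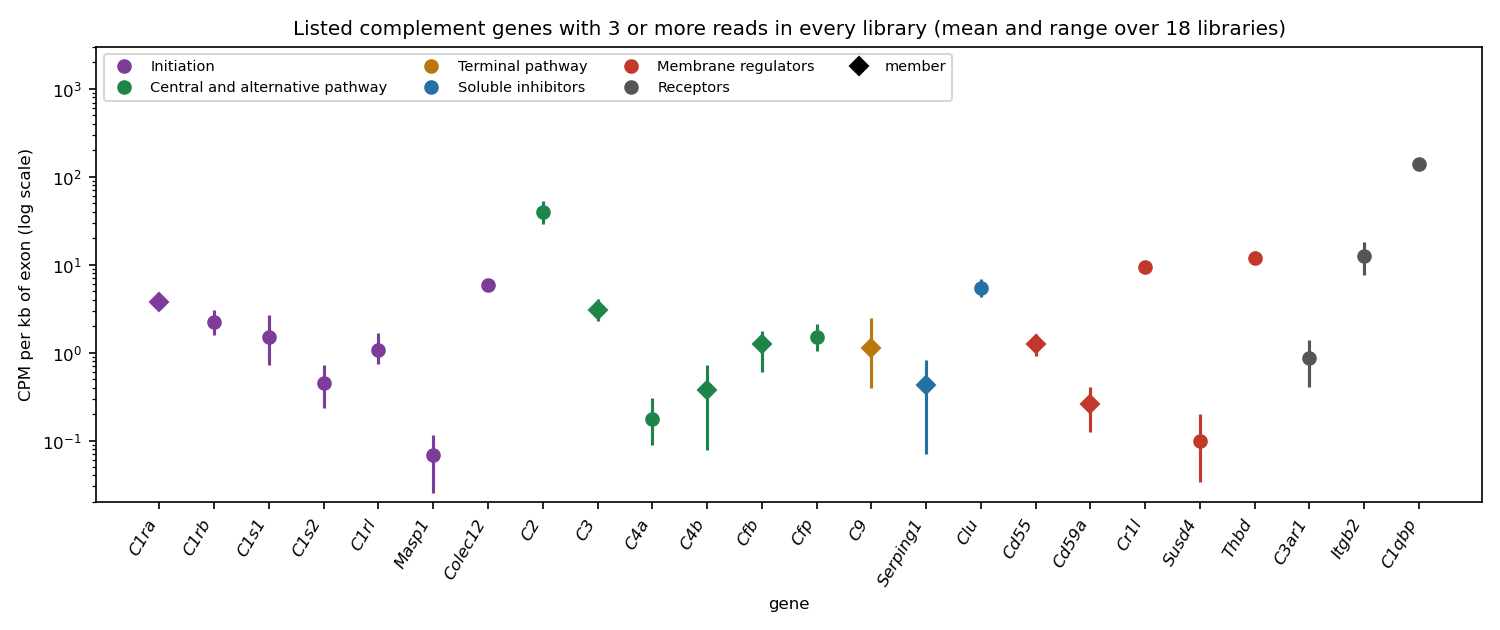
Mean level of 24 listed complement genes with at least 3 estimated reads in each of the 18 libraries, in CPM per kilobase of exon on a log scale, with bars from the lowest to the highest library and colours for the role. Diamonds are the 8 members, of which C1ra is highest at 3.73 and Cd59a lowest at 0.261 CPM per kb.

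**Figure D2:**
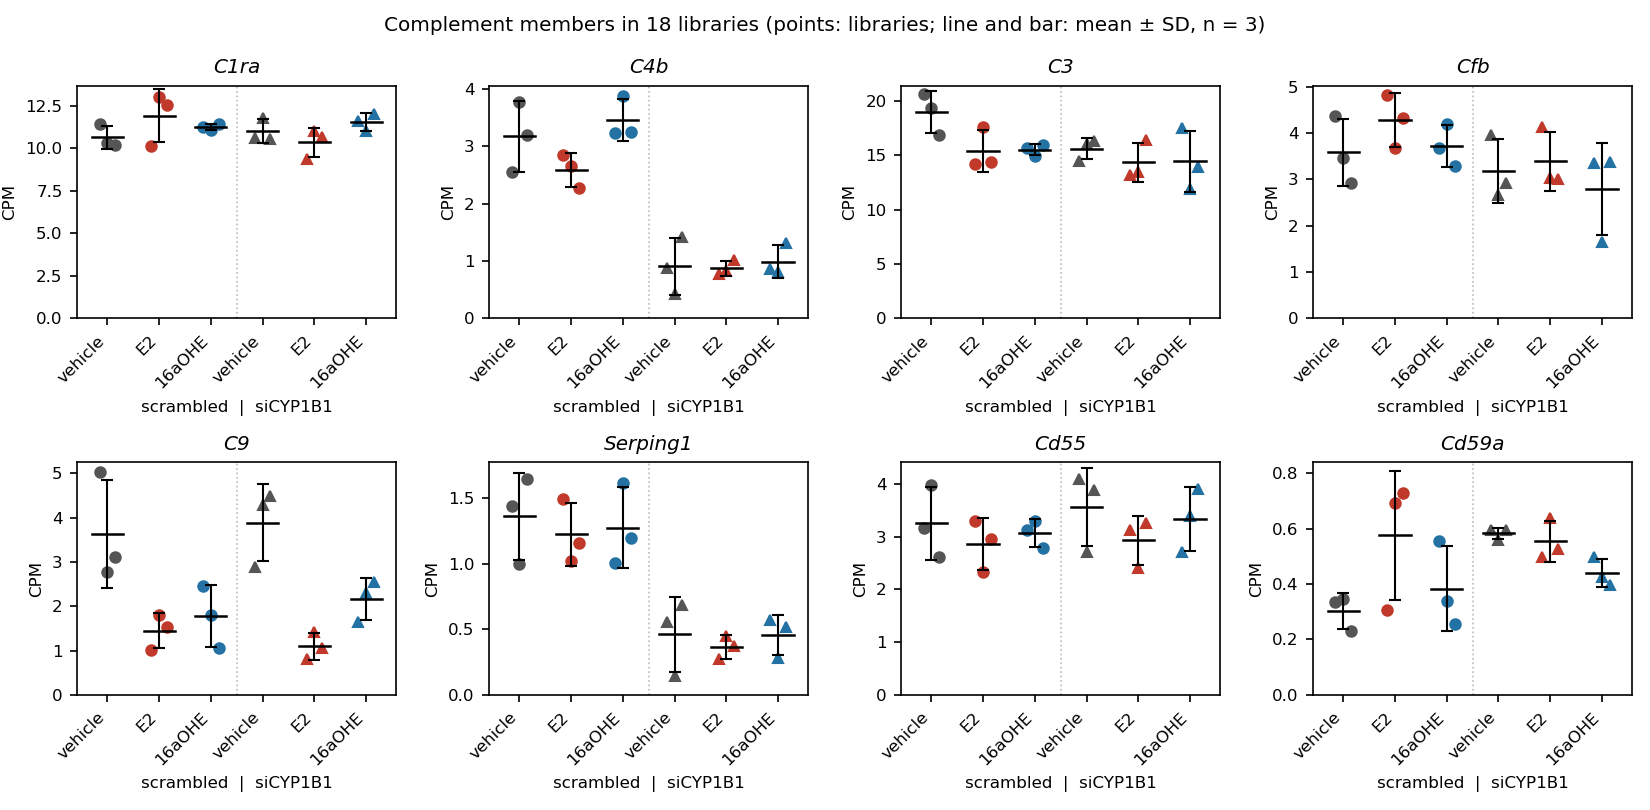
CPM of each member in all 18 libraries, by siRNA and estrogen, with group mean and SD (n = 3). C4b and Serping1 are lower in all 9 siCYP1B1 libraries than in any of the 9 scrambled ones, and C9 is lower in all E2 and 16aOHE libraries than in any vehicle library. The share of all genes that separate in this way is not given.

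C4b, the central component of the classical pathway, and Serping1, the inhibitor of C1r and C1s, were about 3 times lower with siCYP1B1 in every arm. C9, the pore-forming terminal component, was lower with E2 in both siRNA groups and was not called in any siRNA comparison. C1ra, C3, Cfb, Cd55 and Cd59a were not called in any comparison of the reported model. No member's estrogen response was shown to differ between the siRNAs.

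C1ra encodes the mouse form of C1r, the protease that starts the classical pathway (chr6:124512621-124523440, plus strand, mm10). It measured 11.4, 10.3 and 10.2 CPM in scrambled vehicle, 10.1, 13.0 and 12.5 in scrambled E2, and 11.3, 11.1 and 11.4 in scrambled 16aOHE. With siCYP1B1 the values were 10.6, 11.8 and 10.5 CPM in vehicle, 9.39, 11.01 and 10.6 in E2, and 11.6, 11.001 and 12.04 in 16aOHE. Its group means ran from 10.3 CPM in siCYP1B1 E2 to 11.9 CPM in scrambled E2, and the scrambled and siCYP1B1 libraries overlapped within each arm. The averaged siRNA difference was -0.03 (95% interval -0.14 to 0.07) on the log2 scale. In E2 the siRNA difference was -0.18 (adjusted p = 0.160), and without scrambled E2 replicate 1 it was called (adjusted p = 0.0306), as was E2 against vehicle in scrambled cells (0.14 with all libraries, adjusted p = 0.046 without it). In only 2 of 18 libraries did the value come to a whole number of reads within 0.1 reads, and the near copy C1rb averaged 5.49 CPM, so the split between these copies is uncertain.

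C4b encodes C4, whose fragment C4b binds to surfaces and joins C2 (chr17:34728381-34743897, minus strand, mm10). It measured 2.54, 3.76 and 3.20 CPM in scrambled vehicle, 2.85, 2.65 and 2.27 in scrambled E2, and 3.23, 3.87 and 3.25 in scrambled 16aOHE. With siCYP1B1 it measured 0.872, 0.420 and 1.42 CPM in vehicle, 0.770, 0.825 and 1.01 in E2, and 0.853, 0.802 and 1.31 in 16aOHE. The lowest scrambled library (2.27 CPM) lay above the highest siCYP1B1 library (1.42 CPM). Ordered by mean, the groups were scrambled 16aOHE (3.45 ± 0.366 CPM), scrambled vehicle (3.17 ± 0.612), scrambled E2 (2.59 ± 0.294), siCYP1B1 16aOHE (0.989 ± 0.282), siCYP1B1 vehicle (0.904 ± 0.5001) and siCYP1B1 E2 (0.869 ± 0.127; SD, n = 3). Neighbours within a siRNA lay within their spread, and the 1 wide step was between the siRNAs.

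In vehicle, where C4b was already known to be low, the mean was 3.51 times lower with siCYP1B1, a log2 difference of -1.15 given as a description. The E2 and 16aOHE arms share no library with the vehicle arm. The members were, however, chosen with all 6 groups in view, so p-values in these arms may not be independent of that choice. C4b fell there 2.98-fold in E2 (log2 -0.94, 95% interval -1.29 to -0.59, adjusted p = 0.000396) and 3.49-fold in 16aOHE (log2 -1.17, -1.52 to -0.82, adjusted p = 4.99e-05), lower in 3 of 3 libraries of each. These calls were kept under all 25 alternatives run, which reuse the same libraries. Neither estrogen gave a call, with differences from vehicle of -0.21 (E2) and 0.10 (16aOHE) in scrambled cells and 0.01 and 0.09 in siCYP1B1 cells.

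The near copy C4a lies on the same strand at chr17:34809092-34823454. It averaged 0.845 ± 0.271, 0.864 ± 0.127 and 1.04 ± 0.384 CPM with scrambled siRNA in vehicle, E2 and 16aOHE. With siCYP1B1 it averaged 1.14 ± 0.192, 1.04 ± 0.556 and 0.756 ± 0.454 CPM (SD, n = 3), so its groups overlapped. C4b values came to whole reads in 18 of 18 libraries, and how reads common to both copies were assigned is not known. The level of C4b is uncertain for that reason.

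C3, which both pathways cleave, lies at chr17:57203967-57228136 on the minus strand. It measured 20.7, 19.4 and 16.9 CPM in scrambled vehicle, 14.2, 17.6 and 14.3 in scrambled E2, and 15.7, 14.9 and 15.9 in scrambled 16aOHE. With siCYP1B1 it measured 14.5, 16.0 and 16.3 CPM in vehicle, 13.2, 13.5 and 16.4 in E2, and 17.5, 11.9 and 13.9 in 16aOHE. Scrambled vehicle had the highest mean (19.0 ± 1.93 CPM) and the other 5 groups ran from 14.3 to 15.6 CPM, within the spread of one another. Its difference from scrambled vehicle was -0.29 with E2 (95% interval -0.52 to -0.05, adjusted p = 0.0611), -0.27 with 16aOHE (adjusted p = 0.245) and -0.26 with siCYP1B1 (adjusted p = 0.110). All of them share those 3 control libraries and none was called, although the scrambled 16aOHE and siCYP1B1 vehicle libraries all lay below 16.9 CPM, the lowest scrambled vehicle value. The E2 difference was called with quantile normalization, with median-of-ratios factors, with only those groups fitted, and without any 1 of 4 libraries, 1 being scrambled vehicle replicate 3, and its adjusted p ranged from 0.0183 to 0.202 over 26 alternatives. The siCYP1B1 difference in vehicle was called only when its groups alone were fitted (adjusted p = 0.0382). Averaged over the arms the siRNA difference was -0.16 (95% interval -0.29 to -0.02, adjusted p = 0.0563), not called. It was called under 7 of 26 alternatives, both other scalings among them, with adjusted p from 0.00734 to 0.13.

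Cfb encodes factor B, the protease of the alternative pathway (chr17:34856374-34862514, minus strand). It measured 4.36, 3.46 and 2.93 CPM in scrambled vehicle, 4.82, 3.67 and 4.33 in scrambled E2, and 3.68, 4.18 and 3.29 in scrambled 16aOHE. With siCYP1B1 it measured 3.96, 2.66 and 2.93 CPM in vehicle, 4.12, 3.04 and 2.998 in E2, and 3.34, 1.65 and 3.38 in 16aOHE. The groups overlapped within each arm. Averaged over the arms the siRNA difference was -0.25 (95% interval -0.46 to -0.04, adjusted p = 0.0518), just past the threshold. It was called with median-of-ratios factors and without any 1 of 7 libraries, and its adjusted p ranged from 0.027 to 0.12 over 25 alternatives. Of its exon bases, 2246 are shared with the predicted gene Gm20547 on the same strand, which also shares 1647 exon bases with C2.

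C9 forms the ring of the membrane attack complex (chr15:6445333-6498476, plus strand). It measured 5.03, 2.77 and 3.11 CPM in scrambled vehicle, 1.01, 1.79 and 1.54 in scrambled E2, and 2.46, 1.79 and 1.07 in scrambled 16aOHE. With siCYP1B1 it measured 2.89, 4.29 and 4.48 CPM in vehicle, 0.816, 1.42 and 1.05 in E2, and 1.64, 2.31 and 2.55 in 16aOHE. All 6 vehicle libraries (2.77 to 5.03 CPM) lay above all 6 E2 libraries (0.816 to 1.79 CPM) and all 6 16aOHE libraries (1.07 to 2.55 CPM). By mean the order was siCYP1B1 vehicle (3.89 ± 0.868 CPM), scrambled vehicle (3.64 ± 1.22), siCYP1B1 16aOHE (2.16 ± 0.473), scrambled 16aOHE (1.78 ± 0.698), scrambled E2 (1.45 ± 0.400) and siCYP1B1 E2 (1.10 ± 0.307; SD, n = 3).

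With E2, C9 fell 2.51-fold in scrambled cells (log2 -0.90, 95% interval -1.33 to -0.48, adjusted p = 0.00214) and 3.55-fold in siCYP1B1 cells (log2 -1.22, -1.64 to -0.79, adjusted p = 0.000159), lower in 3 of 3 libraries each. Both calls were kept under 25 of 25 alternatives, which reuse the same libraries. The choice of members was made with all 6 groups in view, so these p-values may not be independent of it. The interaction of E2 and siRNA was -0.31 (95% interval -0.92 to 0.29, adjusted p = 0.998), so a difference between the siRNAs was not shown. The averaged siRNA difference of C9 itself was 0.03 (95% interval -0.22 to 0.27).

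16aOHE was set against the same vehicle libraries as E2, so these comparisons are not independent. C9 was 2.05 times lower in scrambled cells (log2 -0.74, 95% interval -1.17 to -0.31, adjusted p = 0.0455), a call kept under 10 of 25 alternatives and lost, for example, with a pseudocount of 0.5 (adjusted p from 0.0276 to 0.258 over the alternatives). In siCYP1B1 cells the difference was -0.62 (-1.05 to -0.20, adjusted p = 0.0819), not called, with all 3 libraries below vehicle.

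Against estradiol, the hydroxylated estrone has an added ring hydroxyl and a ketone where estradiol has a hydroxyl. The compounds were compared directly at 1 uM and 24 hours. For the 8 members in each siRNA there were 16 such comparisons, and p-values were adjusted over all genes tested. Of the 11835 genes, 11.6% were called lower and 6.78% higher with 16aOHE in scrambled cells, and 11.8% and 6.59% in siCYP1B1 cells. Among the 16 member comparisons 1 was called. C9 was 1.97 times higher with 16aOHE than with E2 in siCYP1B1 cells (2.16 against 1.10 CPM, log2 0.59, 95% interval 0.17 to 1.02, adjusted p = 0.0488), and the 3 libraries of each group did not overlap. That call was kept under 14 of 25 alternatives. In scrambled cells the difference of C9 was 0.16 (-0.26 to 0.59, adjusted p = 0.625), where E2 and 16aOHE could not be separated. For C4b the difference was 0.31 in scrambled cells (-0.04 to 0.66, adjusted p = 0.216, with groups that did not overlap) and 0.08 in siCYP1B1 cells (-0.27 to 0.43). For C3 it was 0.02 (-0.22 to 0.25) and 0.00 (-0.24 to 0.23), and for Serping1 0.03 (-0.27 to 0.33) and 0.09 (-0.21 to 0.39). These intervals leave room for differences of either sign, and do not show that the compounds act alike.

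Serping1 encodes the C1 inhibitor, which blocks C1r and C1s (chr2:84765360-84775429, minus strand). It measured 1.44, 0.995 and 1.65 CPM in scrambled vehicle, 1.49, 1.02 and 1.16 in scrambled E2, and 1.01, 1.61 and 1.197 in scrambled 16aOHE. With siCYP1B1 it measured 0.555, 0.140 and 0.687 CPM in vehicle, 0.272, 0.450 and 0.375 in E2, and 0.569, 0.283 and 0.517 in 16aOHE. The lowest scrambled library (0.995 CPM) lay above the highest siCYP1B1 library (0.687 CPM), and the lowest value of all rested on 3 estimated reads. Serping1 fell 2.95-fold in vehicle (log2 -0.70, 95% interval -1.001 to -0.40, adjusted p = 0.00232), 3.34-fold in E2 (-0.70, adjusted p = 0.00236) and 2.79-fold in 16aOHE (-0.64, adjusted p = 0.00531). An exact 2-sided permutation test of its log2 values within arms gave p = 0.00025, the smallest that 8000 rearrangements can give. The lack of overlap already fixes that value, so the test adds nothing to it. The calls were kept under 24 of 24 alternatives in each arm, which reuse the same libraries. As for C4b, the members were chosen with all 6 groups in view, so these p-values may not be independent of that choice. Neither estrogen gave a call for Serping1.

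Cd55 encodes decay-accelerating factor, which breaks up the C3-cleaving enzymes on the cell surface (chr1:130439026-130462744, minus strand). It ran from 2.61 to 3.98 CPM in scrambled vehicle, 2.32 to 3.29 in scrambled E2 and 2.78 to 3.30 in scrambled 16aOHE. With siCYP1B1 it ran from 2.71 to 4.08 CPM in vehicle, 2.40 to 3.26 in E2 and 2.70 to 3.90 in 16aOHE. Every group overlapped every other. The averaged siRNA difference was 0.07 (95% interval -0.11 to 0.25), and E2 against vehicle was -0.14 (-0.46 to 0.18) and -0.21 (-0.53 to 0.11) in scrambled and siCYP1B1 cells.

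Cd59a encodes CD59, which keeps C9 from assembling in the host membrane (chr2:104095801-104115410, plus strand). It measured 0.336, 0.346 and 0.229 CPM in scrambled vehicle, 0.307, 0.692 and 0.728 in scrambled E2, and 0.555, 0.338 and 0.257 in scrambled 16aOHE. With siCYP1B1 it measured 0.595, 0.560 and 0.595 CPM in vehicle, 0.499, 0.637 and 0.525 in E2, and 0.498, 0.425 and 0.398 in 16aOHE. In vehicle all 3 siCYP1B1 libraries lay above the scrambled ones, with a log2 difference of 0.28 (95% interval 0.07 to 0.49, adjusted p = 0.0629) that was not called. It was called without scrambled E2 replicate 1 or scrambled 16aOHE replicate 1, or with only those groups fitted. With E2 in scrambled cells Cd59a averaged 0.576 against 0.304 CPM in vehicle, with overlapping libraries and a log2 difference of 0.26 (95% interval 0.06 to 0.47, adjusted p = 0.0627), not called. That difference was called with quantile normalization (adjusted p = 0.0381) and without scrambled E2 replicate 1 (0.0049) or scrambled 16aOHE replicate 1 (0.0482). Its 16aOHE against E2 difference in scrambled cells was -0.18 (adjusted p = 0.257) and was called without scrambled E2 replicate 1 (0.0323). The exact permutation test of the siRNA difference over the 3 arms gave p = 0.0953, and these values rest on 5 to 17 reads.

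**Figure D3:**
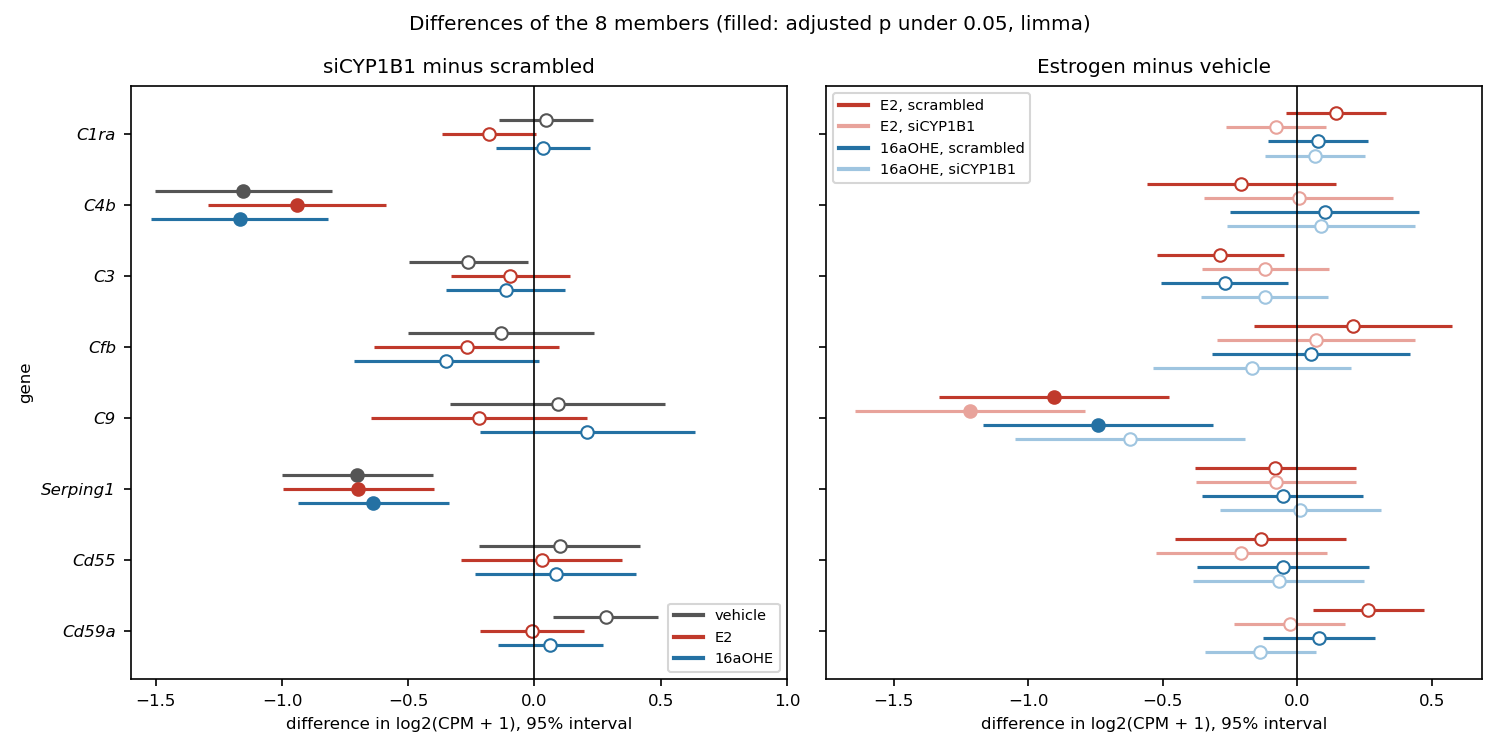
Differences in log2(CPM + 1) of the 8 members with 95% intervals, at left siCYP1B1 minus scrambled in each estrogen arm and at right each estrogen minus vehicle in each siRNA. Filled points passed an adjusted p of 0.05 and open points did not; the C4b point in vehicle is a description, and the members farthest from 0 are C4b (-1.17 to -0.94 with siCYP1B1), Serping1 (-0.70 to -0.64 with siCYP1B1) and C9 (-1.22 to -0.62 with the estrogens), while some open points of C3 and Cd59a have intervals that leave out 0.

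These counts were read against all tested genes. With siCYP1B1, 1 of the 6 tested members (C4b) was lower and 0 were higher in E2, where 9.8% of all genes were called lower and 11.4% higher, and in 16aOHE (9.31% and 10.4%). In vehicle (9.12% of genes lower, 11.5% higher) and averaged over the arms (18.2% and 26.5%) 0 of the other 5 tested members were called. C4b is not counted in those comparisons, since they hold the vehicle libraries of its earlier result. Without the filter on low values C4b and Serping1, 2 of 8, were called lower in E2 (7.23% of genes) and in 16aOHE (6.99%). Leaving C4b uncounted, Serping1 was called there in vehicle (6.93% of genes lower) and averaged (14.4%). With E2, 1 of 6 members (C9) was lower, against 11.4% of genes lower and 18.6% higher in scrambled cells and 10.8% and 16.7% in siCYP1B1 cells. The members were chosen, so nothing is read from these shares about the cascade as a whole. Nor is anything read from libraries that do not overlap, since the share of all genes that separate so is not given.

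With 16aOHE, 1 of 6 members (C9) was lower in scrambled cells, where 2.08% of all genes were called lower and 1.76% higher. In siCYP1B1 cells 0 of 6 passed in limma, against 2.86% of genes lower and 2.53% higher, and 1 had an unadjusted p under 0.05. All shares of genes in this paragraph are at the adjusted threshold, so they are no background for the unadjusted counts. For 16aOHE against E2, 0 of 6 passed in scrambled cells, with 0 at an unadjusted p under 0.05 (all genes 11.6% lower, 6.78% higher), and 1 of 6 in siCYP1B1 cells (11.8% lower, 6.59% higher). The interactions gave 0 calls among members with 0 at an unadjusted p under 0.05, and 0% of all genes were called in either interaction. The median difference of all tested genes was between -0.04 and 0.04 in each comparison. The share of all calls that were higher fell with median-of-ratios factors from 59.3% to 48.6% for the averaged siRNA comparison and from 62.0% to 45.3% for E2 in scrambled cells. It went from 55.7% to 40.0% for the siRNA in vehicle, from 53.7% to 40.2% for the siRNA in E2, and from 60.6% to 44.4% for E2 in siCYP1B1 cells. For 16aOHE against E2 it rose from 36.8% to 55.7% in scrambled and from 35.9% to 59.3% in siCYP1B1 cells, so the genome-wide balance depends on scaling. The calls of C4b, Serping1 and C9 with E2 kept their direction under both other scalings.

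Beyond the members, a list of 64 complement genes was searched, of which 37 were among the rows and 20 were tested. Without the members 14 were tested. With siCYP1B1 averaged over the arms 6 of these 14 were lower and 4 higher, where 18.2% of all tested genes were lower and 26.5% higher, with a median of -0.08 beside 0.03 for all tested genes. C1s1, the mouse C1s protease that acts beside C1r, was lower by 0.71 on average (adjusted p = 1.51e-07) and was called in all 3 arms. It averaged 6.84 ± 1.18 CPM in scrambled vehicle and 3.58 ± 0.348 in siCYP1B1 vehicle (SD, n = 3).

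C2, the protease that pairs with C4, lies beside Cfb (chr17:34862602-34882100, minus strand) and was lower by 0.26 (adjusted p = 1.38e-07), again in all 3 arms. Other decreases included the C1r-like protease gene C1rl (-0.28, adjusted p = 0.00405), the terminal pathway inhibitor clusterin (Clu, -0.16, adjusted p = 0.0312) and thrombomodulin (Thbd, -0.12, adjusted p = 0.0317). The calls of Clu and Thbd were each lost under 9 of 26 alternatives. The increases were C3ar1, the receptor of the C3a fragment (0.59, adjusted p = 6.20e-06), the C1q-binding protein gene C1qbp (0.19), Cr1l, a membrane regulator (0.11), and the integrin chain gene Itgb2 (0.12). Itgb2 lost its call under median-of-ratios factors and under quantile normalization, each of which left 3 of the 14 higher and 6 lower.

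With E2 in scrambled cells 2 of the 14 were higher and 2 lower, beside 18.6% and 11.4% of all tested genes (median 0.01, all genes 0.03). C2 rose by 0.44 (adjusted p = 8.35e-07), from 107 ± 3.35 to 146 ± 2.70 CPM, and the collectin gene Colec12 rose by 0.19 (adjusted p = 0.00968), a call lost with quantile normalization. Itgb2 fell by 0.91 (adjusted p = 9.98e-09) and C3ar1 by 0.40 (adjusted p = 0.0355). The C3ar1 call was lost when scrambled vehicle replicate 1 or 2, or scrambled E2 replicate 1 or 2, was left out, with adjusted p up to 0.157. Other scalings gave 3 or 4 lower genes of the 14 in place of 2. With 16aOHE in scrambled cells Itgb2 alone was called (-0.44, adjusted p = 0.000616). C2 was thus lower with siCYP1B1 and higher with E2, while C4b was lower with siCYP1B1 and not called with E2.

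**Figure D4:**
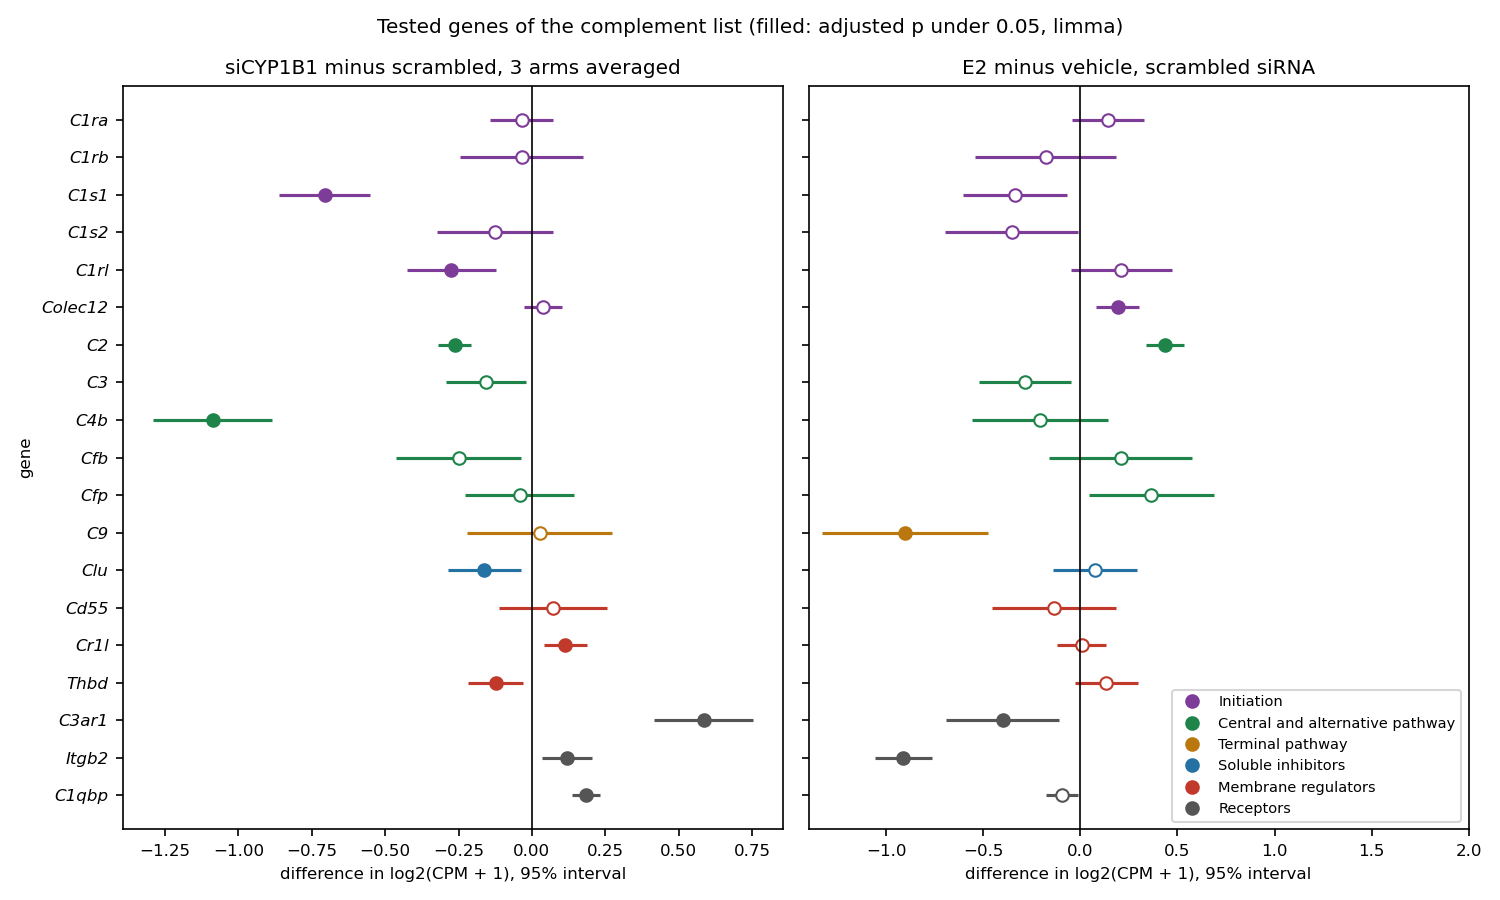
Differences in log2(CPM + 1) with 95% intervals of 19 tested complement genes, coloured by role, for siCYP1B1 minus scrambled averaged over 3 arms (left) and E2 minus vehicle in scrambled cells (right). Filled points passed an adjusted p of 0.05, but the C4b point at left (-1.09) holds the vehicle libraries of its earlier result and is a description. C1s1 (-0.71) is the lowest of the others shown at left, and Itgb2 (-0.91) and C9 (-0.90) at right.

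A list of 26 genes of the interferon, interleukin 6 and NF-kB routes, which are known to induce complement genes, had 22 tested. With siCYP1B1 averaged over the arms 8 were lower and 5 higher, beside 18.2% and 26.5% of all tested genes (median -0.03, all genes 0.03). Among the 8 lower genes, Stat2, a transcription factor activated by interferon receptors, fell by 0.61, the interleukin 1 receptor gene Il1r1 by 0.48 and Irf9 by 0.20. The genes named were picked with their values seen, and the 5 higher genes are not named. Irf1 (-0.01), Stat3 (0.03) and Rela (-0.01) were not called. With E2 in scrambled cells 3 of the 22 were higher and 2 lower, beside 18.6% and 11.4% of all genes. The part of these genes in the fall of C4b and Serping1 was not tested.

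By likeness of log2(CPM + 1) over 18 libraries, the genes nearest to C4b included the interferon-induced GTPase gene Gvin1 (r = 0.94) and Rab6a (r = 0.94). These values come largely from the step between the siRNAs: with the 6 group means removed they were 0.56 and 0.23. Within the 9 scrambled libraries C4b and Serping1 had r = 0.10, and within the 9 siCYP1B1 libraries r = 0.80, so no value over all 18 is given for that pair. The genes nearest to C9 were Galnt18, Kcnab2 and the synuclein gene Sncg (r = 0.91, 0.91 and 0.90), and 0.64, 0.62 and 0.55 with group means removed. Sncg averaged 10.2 ± 2.09 CPM in scrambled vehicle and 3.63 ± 0.159 in scrambled E2 (SD, n = 3).

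Nearest to C3 were Wdr91, Nynrin and Tmem44 (r from 0.82 to 0.83), and to Cfb Ttc38, the interferon-induced gene Oasl2 and Chrd (r from 0.83 to 0.85). C1ra was nearest to Zfp334, Phf6 and Hacd4 (r from 0.69 to 0.70) and Cd55 to Llph, Eif4a1 and Tmem109 (r from 0.70 to 0.74). All these correlations are descriptions over libraries that share groups and depth, chosen as the highest of all tested genes.

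Markers of cell types moved with the same comparisons. The summed level of the 8 mesothelial markers among the rows (of 9 listed) was 4906 to 4989 CPM in scrambled vehicle, 3741 to 3902 in siCYP1B1 vehicle, 3797 to 4048 in scrambled E2 and 3019 to 3125 in siCYP1B1 E2. It was 4451 to 4745 CPM in scrambled 16aOHE and 3497 to 3642 in siCYP1B1 16aOHE. The 6 fibroblast markers summed to 6046 to 6368 CPM in scrambled vehicle, 4850 to 5124 in siCYP1B1 vehicle and 3971 to 4438 in scrambled E2. The 11 endothelial markers among the rows (of 16) summed to 258 to 298, 187 to 188 and 211 to 222 CPM in scrambled vehicle, siCYP1B1 vehicle and scrambled E2. The 6 smooth muscle markers summed to 132 to 137, 110 to 118 and 102 to 121 CPM in scrambled vehicle, siCYP1B1 vehicle and scrambled E2. In bulk samples, fewer cells of a type and less RNA per cell cannot be told apart, and the part of these markers in the results for C4b, Serping1 and C9 was not tested. The 6 of 9 leukocyte markers summed to 82.1 to 84.4, 87.9 to 89.2 and 55.0 to 62.3 CPM in those groups, nearly all of it from Cd14, Cd68 and Itgb2, with Ptprc and Itgam near 0. The 3 of 6 hepatocyte markers summed to 0.937 to 1.69 CPM in those groups.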

How the data were processed

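The values the authors deposited, for 15288 genes in 18 libraries, are CPM with an offset of 0.0001, from the column sums (1000001.5 to 1000001.6). TopHat2, Partek and mm10 are named per the submitters' processing notes; versions and filters are not stated there. Low values fell on steps worth 1 read, from which depth was estimated (14.1 to 38.5 reads per CPM); 93.2% to 94.1% of values were whole within 0.1 reads, so count tests were not run. Log2(CPM + 1) was fitted in R 4.3.3 by limma 3.58.1, with 1 coefficient per group and a trended prior variance, with adjustment within each of 12 contrasts over 11835 genes averaging 1 CPM or more, and was tested on simulated data. Replicate numbers 1 to 3 were given here in the order of the samples, only name a library and pair nothing across groups. Members and lists were chosen with earlier results of these data known. Named genes are all members, every listed complement gene called in the averaged siRNA contrast or with either estrogen in scrambled cells, and the 3 genes most like each tested member; the other genes named (signalling list, cell markers, C4a, C1rb, Cyp1b1) were chosen as context with their values seen. A gene that meets this rule may be counted but not reported here by name. Positions are the deposited table's, exon lengths and overlaps come from GENCODE's mouse annotation on mm10, and promoters from RefSeq GRCm38.p6 (numpy 2.4.6, pandas 2.3.3). Intervals are 95%. The fit of Serping1 and Cd59a over all genes was added after the data were seen.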

Additional observations from a re-analysis of the deposited data

How the results depend on the processing

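Each comparison was refitted with other pseudocounts, filters, scalings and variance settings and without each library. Of 96 member differences, 75 were called under no setting, and 39 of these changed sign under an alternative. No called difference reversed. In the 4 siRNA comparisons the count of members called, 1 (C4b, a description in vehicle and averaged), was 2 with no filter on low values (C4b and Serping1) and 0 with a mean of at least 5 CPM, where only C3 and C1ra were tested. The 5 CPM filter also gave 0 in place of 1 for E2 in both siRNAs, 16aOHE in scrambled cells, and 16aOHE against E2 in siCYP1B1 cells. Of 10345 genes it called 1361 higher and 1034 lower for the siRNA in vehicle, 1347 and 1107 in E2, 1237 and 1012 in 16aOHE, and 3089 and 1933 averaged. For E2 it called 2154 and 1230 in scrambled and 1932 and 1185 in siCYP1B1 cells. For 16aOHE in scrambled cells it called 201 and 229, and for 16aOHE against E2 in siCYP1B1 cells 767 and 1373. Fitting only the compared groups gave 2 for the siRNA in vehicle, 2 for E2 in scrambled cells and 0 for 16aOHE in scrambled cells. Of 11835 genes, that fit called 1440 higher and 1128 lower, 1966 and 1176, and 193 and 241 in these comparisons. Quantile normalization gave 2 for the averaged siRNA comparison and 2 for E2 in scrambled cells, and median-of-ratios factors gave 3 (C3, C4b and Cfb) and 2. Among all 11835 genes, quantile normalization called 2668 higher and 2303 lower for the averaged siRNA comparison, and 1654 and 1588 for E2. With median-of-ratios factors these were 2382 and 2521, and 1499 and 1808. For 16aOHE in scrambled cells pseudocounts of 0.5 and 0.1, no filter, and eBayes without trend each gave 0. Among all genes they called 207 higher and 236 lower, 207 and 233, 201 and 224 of 15288, and 170 and 187. No filter and eBayes without trend also gave 0 for 16aOHE against E2 in siCYP1B1 cells. There they called 734 higher and 1257 lower, and 695 and 1300, among all genes. The cause of these shifts, other than the filters, was not tested. Leaving out 1 library gave 1 to 2 for the siRNA in E2, 1 to 3 averaged, 1 to 2 for E2 in scrambled cells, and 0 to 1 for 16aOHE in scrambled cells and for 16aOHE against E2 in siCYP1B1 cells. Among all 11835 genes these refits called 897 to 1498 higher and 902 to 1222 lower for the siRNA in E2. Averaged, they called 2890 to 3140 and 2030 to 2178, and for E2 in scrambled cells 1694 to 2309 and 1073 to 1424. For 16aOHE in scrambled cells they called 126 to 228 and 118 to 265. For 16aOHE against E2 in siCYP1B1 cells they called 566 to 811 and 880 to 1467. No paired analysis was possible because the labels carry no replicate numbers; the numbers used here are only names. Depth limits Serping1 and Cd59a most, at 3 to 62 and 5 to 17 reads.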
